A study of Mus musculus with 4 samples.

Results

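The genes of programmed cell death and of the p53 response were examined in mouse molar tooth germs exposed to TCDD (2,3,7,8-tetrachlorodibenzo-p-dioxin), a dioxin that activates the aryl hydrocarbon receptor. The set was fixed by name as 34 genes, and every probe set that the platform annotation assigns to exactly 1 of them was taken, on all 4 arrays. For 32 of the 34 genes such a probe set was present, 48 probe sets in all among the 12488 of the table. Bax, which encodes a pore-forming killer protein of the mitochondrion, and Trp53, which encodes p53 itself, were not analysed here. Of the 32 genes, 21 had 1 probe set and 11 had several, up to 4.

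The TCDD group consisted of mandibular molar regions from embryos of the NMRI mouse strain (embryonic day 14), which spent 24 h as explants on filters in medium containing TCDD at 1 µM, and the DMSO group of the same tissue held for the same time with the solvent DMSO at 0.65%. Both media were DMEM with 10% fetal calf serum, and the labels name no genetic change in either group. Each group had 2 arrays, and each array carried the RNA of a pool of about 60 explants from 3 experiments, so that single embryos cannot be told apart. Total RNA for labelling was 11 and 8 µg for TCDD replicates 1 and 2, and 11 and 7 µg for DMSO replicates 1 and 2. Ascorbic acid in the medium is listed only for DMSO replicate 2. The labels give no solvent level for the TCDD cultures, and they do not say whether equally numbered pools came from the same experiments.

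Cell death by apoptosis is carried out by caspases, proteases that are switched on by either of 2 routes. In the mitochondrial route the balance of BCL2 family proteins decides whether the mitochondrial outer membrane is opened, after which APAF1 assembles the apoptosome and activates caspase 9. In the receptor route, ligands such as FASL and TNF engage death receptors, and the adaptor FADD recruits caspase 8. The transcription factor p53 raises genes of cell cycle arrest, repair and death after DNA damage, and MDM2, whose gene is one of its targets, marks p53 for degradation. In the developing tooth, apoptosis removes cells of the enamel knot, the signalling centre of the epithelium. Enhanced apoptosis in the dental epithelium is a known effect of TCDD on cultured mouse molars.

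The windows before the start sites of Mdm2 and Ccng1 are shown because these 2 genes, both classical p53 targets, were the only members on the array whose window of 250 bases held both the core of the dioxin response element and a p53 half-site. That of Bok is shown because Bok had the smallest p-value of the tested member probe sets. The sequences are RefSeq's, in build GRCm38.p6, written 5′ to 3′ on the strand of the gene. Capitals mark the dioxin response core GCGTG, or CACGC where it lies on the other strand, and the p53 half-site consensus.
Mdm2, chr10:117710759-117711008, minus strand: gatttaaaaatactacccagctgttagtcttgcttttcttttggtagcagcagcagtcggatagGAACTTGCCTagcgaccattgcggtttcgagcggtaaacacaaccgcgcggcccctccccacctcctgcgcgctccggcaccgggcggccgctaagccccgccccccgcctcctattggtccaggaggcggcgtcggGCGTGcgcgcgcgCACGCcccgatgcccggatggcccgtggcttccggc
Ccng1, chr11:40755287-40755536, minus strand: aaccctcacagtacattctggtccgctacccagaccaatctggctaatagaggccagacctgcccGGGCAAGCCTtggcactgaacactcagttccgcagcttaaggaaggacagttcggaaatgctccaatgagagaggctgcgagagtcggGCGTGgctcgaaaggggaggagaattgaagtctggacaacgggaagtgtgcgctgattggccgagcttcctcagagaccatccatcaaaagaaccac
Bok, chr1:93685325-93685574, plus strand: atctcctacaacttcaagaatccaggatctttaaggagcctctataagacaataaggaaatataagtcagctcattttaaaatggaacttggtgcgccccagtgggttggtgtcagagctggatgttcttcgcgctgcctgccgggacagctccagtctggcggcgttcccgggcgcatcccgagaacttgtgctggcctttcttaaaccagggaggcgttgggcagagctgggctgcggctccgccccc
In Mdm2 the core began 49 and 36 bases before the start site and the half-site 186 bases before it. In Ccng1 they began 97 and 185 bases before it. The window of Bok held neither, which says only that these letters are not in these bases. The 2 motifs do not overlap each other in the windows shown. Of 40 windows of 31 member genes on the array, 15 (37.5%) held the core on either strand, against 9250 of all 32851 windows (28.16%). The half-site was present in 4 of the 40 (10%) and in 7.13% of all windows. Bik had no window in the table. A match is a description of the letters and not evidence of a bound site.

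Signals are in MAS5 units, the brightness of a probe set after each array was scaled by the authors to a target of 100. A probe set was tested where its mean over the 4 arrays was at least 50, which held for 5783 of all probe sets and for 27 of the 48 here, representing 22 of the 32 genes. Log2 changes are TCDD minus DMSO on the log2(signal + 16) scale, where 16 is an offset that damps the noise of dim signals and understates their change. The test was limma's moderated test with Benjamini-Hochberg adjustment over all 5783 probe sets. Each gene with several probe sets is described first by the one with the highest mean signal, and levels are not compared between probe sets. In RNA from pooled tissue, fewer cells of a type and less RNA per cell cannot be told apart.

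None of the apoptosis and p53 response genes changed past the test. Of 5783 probe sets, 4 (0.0692%) passed a limma adjusted p of 0.05, and 0 of the 27 tested here did, with a lowest adjusted p of 0.997. At an unadjusted p under 0.05 there was 1 probe set here, that of Bok, where 2.59% of all tested probe sets reached that level. Exposure itself was visible on the same arrays, as Cyp1a1, a cytochrome P450 gene induced through the aryl hydrocarbon receptor, had signals of 194.8 and 210.5 in TCDD tooth germs, against 14.7 and 12.7 in DMSO tooth germs (94715_at). These 2 DMSO signals lie under the offset of 16 and were read back from a spreadsheet fault, described below. A dimmer Cyp1a1 probe set (161831_at), below the filter, had 15.5 and 18.5 in TCDD tooth germs, against 32.5 and 3.6 in DMSO tooth germs. Among the 22 genes 11 had a higher and 11 a lower mean in TCDD. Their median log2 change was 0.004, beside 0.007 over all tested probe sets, and their median absolute log2 change was 0.139, beside 0.147.

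The TCDD and DMSO arrays did not overlap in 7 of the 22 genes (31.8%), 3 higher and 4 lower in TCDD. Over all tested probe sets 29.8% did not overlap, 15.3% higher and 14.6% lower, so the share among these genes was near the background. In 21 of the 22 genes the 95% interval at the brightest probe set lay inside a 2-fold change in either direction. The interval is that of the log2 change, taken for each gene on its own, and the exception was Bok. Among the dimmer tested probe sets, that of Bad (161500_i_at) also reached outside, with an interval of -1.26 to 0.38. An interval inside a 2-fold change was found for 93.5% of all tested probe sets. These bounds hold on the scale with the offset, which understates changes of dim signals, and not for the signal itself. Inside a 1.5-fold change the interval lay for 8 of the 22 genes, beside 36.3% of all tested probe sets.

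**Figure D1:**
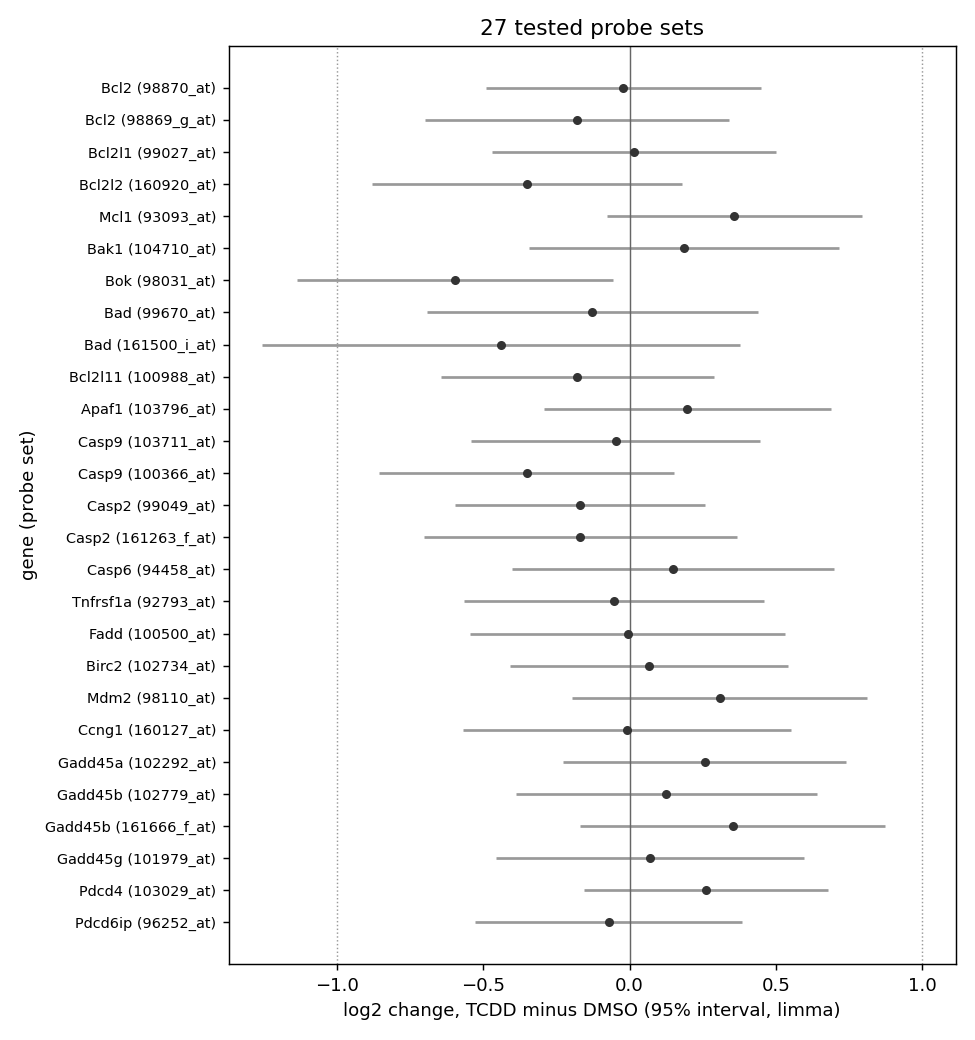
Log2 change, TCDD minus DMSO, of the 27 tested probe sets, 1 row each, with its 95% interval from limma (n = 2 arrays per group). Dotted lines mark a 2-fold change, and only the interval of Bok lies wholly on one side of 0.

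The pro-survival BCL2 family proteins bind and hold in check the proteins that open the mitochondrion. Mcl1, a short-lived member of this group, had signals of 221.2 and 200.8 in TCDD tooth germs, against 160.1 and 161.9 in DMSO tooth germs. Both TCDD arrays were above both DMSO arrays, and the DMSO arrays nearly coincided. The log2 change was 0.36 ± 0.20 (SE, n = 2), with a 95% interval of -0.08 to 0.79 and an unadjusted p of 0.0975 from limma, and this was the largest positive change among the 22 genes.

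Bcl2l2, which encodes the pro-survival protein BCL-W, lay the other way. Its signals were 45.5 and 54.4 in TCDD tooth germs, against 78.2 and 58.8 in DMSO tooth germs, without overlap. The log2 difference was -0.35 ± 0.24 (SE). Bcl2, the founding member of the family, and Bcl2l1, which encodes BCL-XL, hardly differed between the group means. Bcl2 (98870_at) had signals of 86.9 and 102.8 in TCDD tooth germs, against 96.7 and 95.7 in DMSO tooth germs, with a log2 difference of -0.02 and an interval of -0.49 to 0.45. Bcl2l1 (99027_at) had signals of 144.2 and 159.6 in TCDD tooth germs, against 176.7 and 127 in DMSO tooth germs, with a log2 difference of 0.01 and an interval of -0.47 to 0.50. In both genes the groups overlapped.

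Other probe sets of these 2 genes were dimmer and did not all run the same way. A further tested probe set of Bcl2 (98869_g_at) had a log2 difference of -0.18. Another (98868_at), below the filter, had signals of 4.3 and 5.2 in TCDD tooth germs, against 8.9 and 9.1 in DMSO tooth germs. For Bcl2l1 the probe set 99026_at had signals of 10.4 and 10.9 in TCDD tooth germs, against 4 and 4.8 in DMSO tooth germs. The groups did not overlap in either, but all these signals lie under the offset of 16, where no detection call shows whether they exceed background. In the fit without a filter, where 3.64% of 12422 probe sets had an unadjusted p under 0.05, 99026_at had 0.0324 (limma adjusted p 0.979). In that fit 0 of the 48 member probe sets passed an adjusted p of 0.05, beside 0.0161% of all.

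Among the effectors, which form the pore in the mitochondrial membrane, Bok showed the widest difference of the 22 genes. Its signals were 113.1 and 118.1 in TCDD tooth germs, against 234.5 and 141.8 in DMSO tooth germs. The groups did not overlap, the TCDD arrays lay close together, and the DMSO arrays were far apart. The group means were 116 ± 3.54 in TCDD tooth germs and 188 ± 65.5 in DMSO tooth germs (SD, n = 2 each). The log2 difference was -0.60 ± 0.25 (SE), with an interval of -1.14 to -0.06, an unadjusted p of 0.0337 and an adjusted p of 0.997 from limma. It was -0.26 without DMSO replicate 1 and -0.93 without DMSO replicate 2, so the size depended on which control array was kept. Bak1, the effector that resides in the outer membrane, had signals of 124.1 and 100.3 in TCDD tooth germs, against 117.8 and 78.1 in DMSO tooth germs, which overlapped. Its log2 difference was 0.19 ± 0.24 (SE).

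BH3-only proteins sense stress and relieve the block that pro-survival members impose. Bcl2l11, which encodes BIM (100988_at), had signals of 165.8 and 202 in TCDD tooth germs, against 188.2 and 232.4 in DMSO tooth germs, with overlap and a log2 difference of -0.18 ± 0.21 (SE). Its 2 dimmer probe sets lay in opposite directions, with log2 differences of -0.48 (99418_at) and 0.17 (99419_g_at) in the fit without a filter. Bad, whose product is held inactive by growth factor signalling, had signals of 58.3 and 99.2 in TCDD tooth germs, against 92.6 and 78.1 in DMSO tooth germs (99670_at). The spread between its TCDD arrays, 0.63 on the log2 scale, exceeded the difference of -0.13. At the other probe set of Bad (161500_i_at) the signals were 53.1 and 54.5 in TCDD tooth germs, against 136.9 and 42.6 in DMSO tooth germs, so that the difference of -0.44 ± 0.37 (SE) came from DMSO replicate 1.

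Bid and Bik stayed below the filter. Bid, which links death receptors to the mitochondrion once caspase 8 has cut it, had signals between 33.4 and 40.6 on the 4 arrays. Bik had 4.4 and 18.1 in TCDD tooth germs, against 41.4 and 18.1 in DMSO tooth germs. The replicate 2 arrays of both groups had the same Bik signal, and the difference of -0.75 ± 0.36 (SE) in the fit without a filter came from the replicate 1 arrays.

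**Figure D2:**
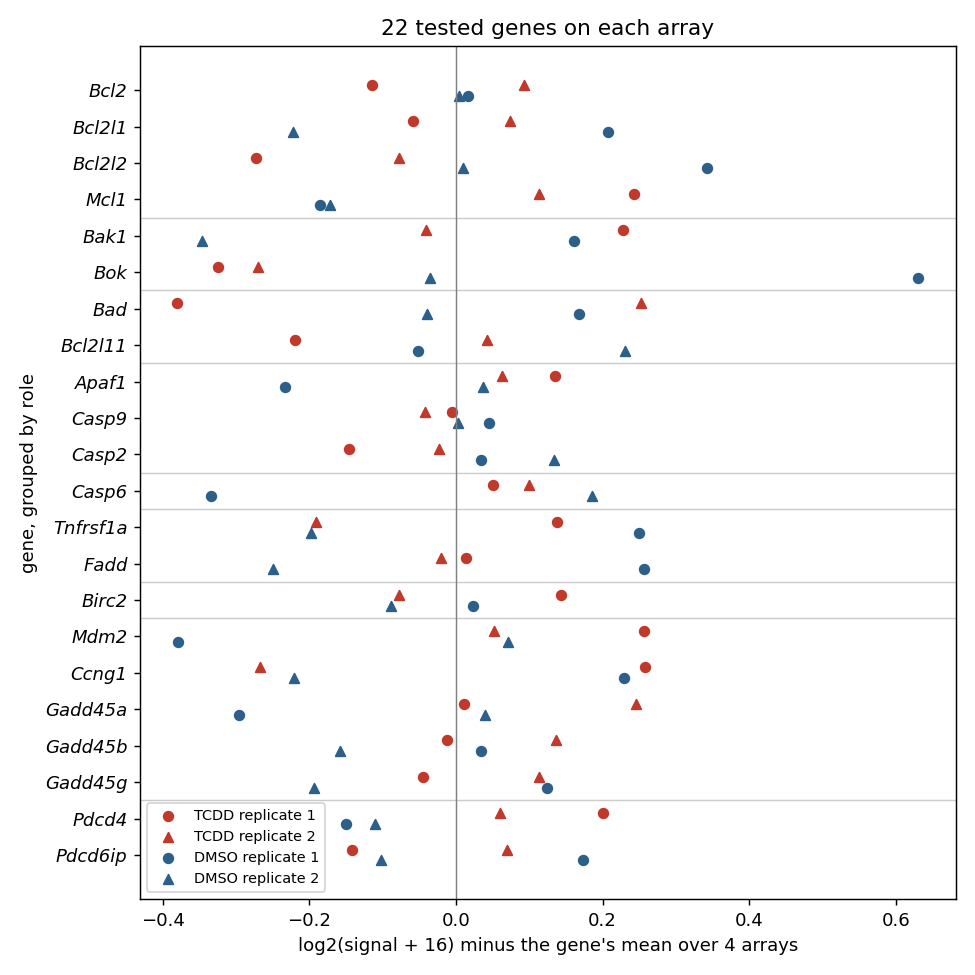
For each of the 22 tested genes, log2(signal + 16) on each array minus the mean of that gene over the 4 arrays. Colours separate TCDD from DMSO and shapes separate replicates 1 and 2, and grey lines divide the roles. The colours are apart in 7 genes, among them Bok, Mcl1 and Pdcd4, and mixed in the other 15.

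In the apoptosome, Apaf1, the scaffold that cytochrome c assembles, had signals of 88.7 and 83.6 in TCDD tooth germs, against 65.1 and 81.8 in DMSO tooth germs. The groups did not overlap, but the gap between TCDD replicate 2 and DMSO replicate 2 was small, and the log2 difference was 0.20 ± 0.22 (SE). Casp9, the initiator caspase of the apoptosome, had 4 probe sets. The brightest (103711_at) had signals of 61.1 and 59.1 in TCDD tooth germs, against 63.8 and 61.5 in DMSO tooth germs, a log2 difference of -0.05 with an interval of -0.54 to 0.45. Arrays that do not overlap can thus differ by very little. The probe set 100366_at had 49.2 and 52.5 in TCDD tooth germs, against 74.9 and 64 in DMSO tooth germs, also without overlap, with a log2 difference of -0.35 ± 0.23 (SE). Those below the filter differed by -0.12 (100367_g_at) and 0.16 (100368_at), so the 4 probe sets of Casp9 did not share a direction.

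Casp2, an initiator caspase that answers DNA damage and failed division, had signals of 227.7 and 249.4 in TCDD tooth germs, against 260.2 and 279.8 in DMSO tooth germs (99049_at). The groups did not overlap, and the log2 difference was -0.17 ± 0.19 (SE). Its other probe set (161263_f_at) differed by the same -0.17, with overlapping groups. Casp8, the initiator of the receptor route, had signals of 38.7 and 34.7 in TCDD tooth germs, against 34.5 and 43.5 in DMSO tooth germs, below the filter and overlapping.

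Of the other caspases only Casp6, an executioner that cleaves nuclear lamins, reached the filter. Its signals were 64.7 and 67.5 in TCDD tooth germs, against 45.8 and 72.6 in DMSO tooth germs, and both TCDD arrays lay between the DMSO arrays. The inflammatory caspases were dim on every array. Casp1, which matures interleukin-1 beta, had signals of 11.6 and 16.1 in TCDD tooth germs, against 17.4 and 11.3 in DMSO tooth germs. Casp4, known in the mouse as caspase 11 and a sensor of bacterial lipopolysaccharide, had 18 and 1.9 in TCDD tooth germs, against 6.6 and 8.5 in DMSO tooth germs. Casp12 had 3 and 4.8 in TCDD tooth germs, against 5.2 and 2.4 in DMSO tooth germs. All 3 overlapped between groups.

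On the receptor route the death ligand and its receptor were below the filter, and the adaptor and the brightest probe set of the TNF receptor reached it. Fasl had signals of 1.5 and 1.2 in TCDD tooth germs, against 4 and 1.6 in DMSO tooth germs. Fas (102921_s_at) had 5.8 and 9.1 in TCDD tooth germs, against 10.8 and 5.1 in DMSO tooth germs. Every one of these signals lies under the offset of 16, and no detection call says whether the transcripts were present. Tnfrsf1a, the main TNF receptor of most cells (92793_at), had signals of 158.7 and 123 in TCDD tooth germs, against 172.8 and 122.4 in DMSO tooth germs. Here the arrays sorted by replicate number, with both replicate 1 arrays above both replicate 2 arrays, and the log2 difference between groups was -0.05 with an interval of -0.56 to 0.46. The other probe set of Tnfrsf1a (161194_r_at), below the filter, had 26.5 and 18.3 in TCDD tooth germs, against 29.4 and 13.9 in DMSO tooth germs. Fadd had 71.2 and 69.2 in TCDD tooth germs, against 87.2 and 56.7 in DMSO tooth germs, so that both TCDD arrays lay between the DMSO arrays. Its log2 difference was -0.01.

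Inhibitor of apoptosis proteins bind caspases or the complexes that activate them. Birc2, which encodes cIAP1, an inhibitor in TNF receptor complexes, had signals of 101.5 and 84.8 in TCDD tooth germs, against 92.1 and 84 in DMSO tooth germs (102734_at), with a log2 difference of 0.07 ± 0.22 (SE). Its other probe set (161883_f_at), below the filter, differed by -0.09 ± 0.27 (SE) in the fit without a filter. Birc3, which encodes cIAP2, had 26 and 25.3 in TCDD tooth germs, against 7.5 and 33.6 in DMSO tooth germs, below the filter. Xiap, the direct inhibitor of caspases 3, 7 and 9, had 3 probe sets, all below the filter. The brightest (93402_i_at) had 32 and 29.4 in TCDD tooth germs, against 49.1 and 28.7 in DMSO tooth germs. All 3 had a lower mean in TCDD tooth germs, with log2 differences of -0.21, -0.18 and -0.14 in the fit without a filter, each within its standard error of 0.30, 0.23 and 0.17.

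**Figure D3:**
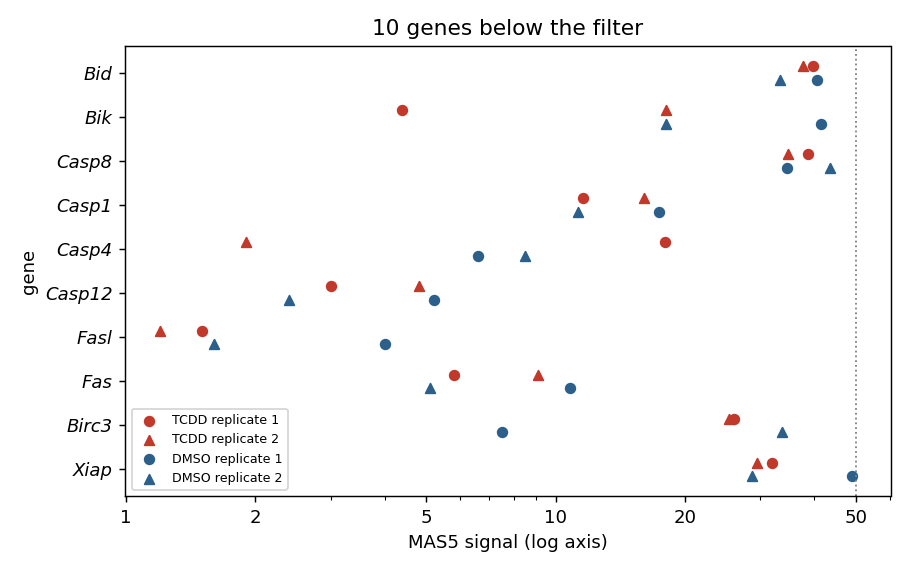
MAS5 signal on each array, on a log axis, of the 10 genes whose brightest probe set was below the filter. The dotted line marks the filter at 50, and Fasl, at signals of 4 and less, is the only one of the 10 whose groups do not overlap.

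The p53 response genes had no member whose groups were apart at its brightest probe set. Mdm2, which encodes the ubiquitin ligase of p53, had signals of 145.3 and 123.9 in TCDD tooth germs, against 87.8 and 125.8 in DMSO tooth germs. DMSO replicate 1 was the low array and the other 3 were close. The log2 difference was 0.31 ± 0.23 (SE), with an interval of -0.20 to 0.81, and it was 0.08 without DMSO replicate 1. Ccng1, which encodes cyclin G1, had 122.8 and 80.4 in TCDD tooth germs, against 120.1 and 83.6 in DMSO tooth germs. The 2 replicate 1 arrays were alike and the 2 replicate 2 arrays were alike, and the log2 difference between groups was -0.01 with an interval of -0.57 to 0.55. The windows of Mdm2 and Ccng1 both held a p53 half-site and the dioxin response core, and neither gene passed the test. Since 0.0692% of all tested probe sets passed, this says nothing about the motifs.

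The 3 Gadd45 genes encode small stress proteins that act on cell cycle arrest, repair and stress kinases. Gadd45a, the member most directly under p53, had signals of 125.8 and 150.8 in TCDD tooth germs, against 98.6 and 128.7 in DMSO tooth germs, with a log2 difference of 0.26 ± 0.22 (SE), which was 0.09 without DMSO replicate 1. It overlapped between groups because TCDD replicate 1 lay below DMSO replicate 2. Gadd45b, a target of NF-kappaB and TGF-beta, had 55.2 and 62.9 in TCDD tooth germs, against 57.5 and 48.3 in DMSO tooth germs (102779_at), a difference of 0.12. Its other probe set (161666_f_at) had 67.1 and 56.7 in TCDD tooth germs, against 41 and 49.1 in DMSO tooth germs, without overlap and with a difference of 0.35 ± 0.24 (SE). Gadd45g had 55 and 63.3 in TCDD tooth germs, against 63.9 and 48.1 in DMSO tooth germs, and differed by 0.07. Of the 5 p53 response genes tested, 4 had a higher mean in TCDD tooth germs, 0 of them past the test, beside 51.1% of all tested probe sets. Their median log2 change was 0.13, beside 0.007 over all tested probe sets. Other roles, also of few genes, lay as far from 0, with -0.205 for the effectors, -0.153 for the BH3-only genes and 0.15 for Casp6.

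Pdcd4, which encodes an inhibitor of translation initiation, had signals of 384.1 and 346.9 in TCDD tooth germs, against 297.6 and 306.3 in DMSO tooth germs. The groups did not overlap, and the gap between them was wider than the differences within them. The log2 difference was 0.26 ± 0.19 (SE), with an interval of -0.15 to 0.68. Pdcd6ip, which encodes ALIX, an adaptor of endosomal sorting that binds the PDCD6 protein, had 196.9 and 230.4 in TCDD tooth germs, against 248.8 and 202.8 in DMSO tooth germs (96252_at). Its log2 difference was -0.07 there and 0.12 at its dimmer probe set (95040_at), below the filter.

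**Figure D4:**
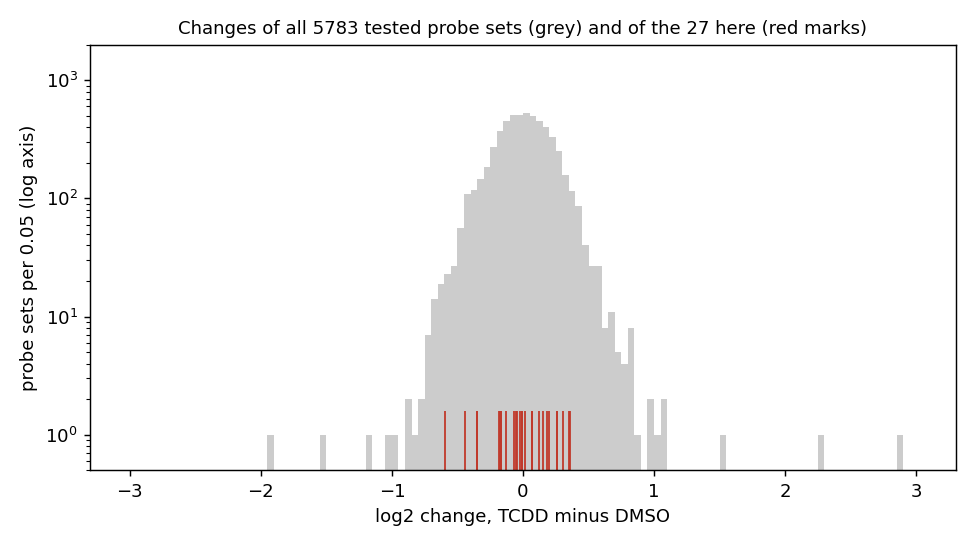
Number of tested probe sets (log axis) by log2 change, TCDD minus DMSO, in steps of 0.05. Grey columns hold all 5783 tested probe sets and red marks stand at the 27 of the apoptosis and p53 response genes, which lie between -0.60 and 0.36.

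The spread between pools of one group was of the same order as these differences. In 17 of the 22 genes the log2 change was smaller than the wider of the 2 gaps between equally treated arrays. The median gap was 0.18 between the TCDD arrays and 0.30 between the DMSO arrays for these genes, beside 0.21 and 0.22 over all tested probe sets. The widest DMSO gaps were those of Bok (0.67), Casp6 (0.52), Bak1 (0.51) and Fadd (0.51), and the widest TCDD gap was that of Bad (0.63). DMSO replicate 1 was the highest of the 4 arrays in 8 of the 22 genes (36.4%) and the lowest in 6. Over all tested probe sets it was the highest in 28.4% and the lowest in 1844 of 5783. In 8 genes (36.4%) both replicate 1 arrays lay on one side of both replicate 2 arrays, 5 above and 3 below, beside 44.4% of all tested probe sets.

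**Figure D5:**
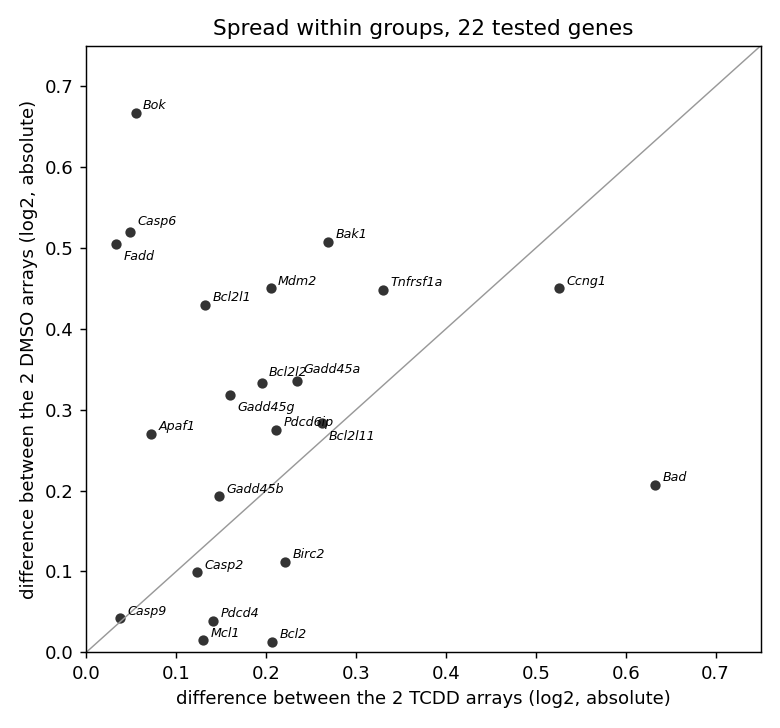
For each of the 22 tested genes, the absolute log2 difference between the 2 TCDD arrays (x) and between the 2 DMSO arrays (y). The line marks equal gaps. Bok, Casp6 and Fadd stand out for DMSO arrays that are far apart beside TCDD arrays that are close, and Bad for the opposite.

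The genes around these members were read from 6 further lists. Of 54 genes tested in them, 0 passed the limma adjusted p, and the groups did not overlap in 15 (27.8%), beside the 29.8% of all tested probe sets. As the background for the directions given below, 51.1% of all tested probe sets had a higher mean in TCDD, with a median log2 change of 0.007. Among other p53 targets, 13 of 28 listed genes were tested, 10 had a higher and 3 a lower mean in TCDD tooth germs, and the median log2 change was 0.02. Perp, a p53 target of desmosomes that is also expressed in stratified epithelia, had signals of 756.8 and 738 in TCDD tooth germs, against 393.2 and 592.1 in DMSO tooth germs, a log2 difference of 0.61 ± 0.21 (SE, limma unadjusted p 0.0154). Its groups did not overlap, and its limma adjusted p was 0.997. The difference was 0.33 without DMSO replicate 1 and 0.90 without DMSO replicate 2. Plk2, which encodes a polo-like kinase, had 328.1 and 433.8 in TCDD tooth germs, against 161.6 and 372.7 in DMSO tooth germs, a difference of 0.58 ± 0.32 (SE), which was 0.02 without DMSO replicate 1 and 1.15 without DMSO replicate 2.

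Cdkn1a, which encodes the cell cycle inhibitor p21 and is the best known p53 target, differed widely between the control arrays. Its signals were 75.4 and 107.2 in TCDD tooth germs, against 559.1 and 85.7 in DMSO tooth germs (98067_at). The log2 difference was -1.19 ± 0.58 (SE), and it was 0.06 without DMSO replicate 1 and -2.44 without DMSO replicate 2, where the array with the high signal is the whole DMSO group. With the replicate number as a block, where 0.553% of all tested probe sets were called, its limma adjusted p was 2.99e-06. That fit compares the groups within each number. It judges a probe set almost wholly by a variance shared over probe sets, and not by the spread of that probe set. For Cdkn1a the 2 numbers went opposite ways. TCDD was below DMSO in replicate 1 and above it in replicate 2, so this p-value does not show a shared fall. The other probe set (94881_at) had 84 and 66.6 in TCDD tooth germs, against 71.1 and 74.2 in DMSO tooth germs, with no high array.

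Other BCL2 family, BAG and BNIP genes had 7 of 19 tested, 4 with a higher and 3 with a lower mean in TCDD tooth germs, and a median log2 change of 0.29. Bag3 encodes a co-chaperone that guards against cell death. Its signals were 212.9 and 198.6 in TCDD tooth germs, against 112.6 and 143.5 in DMSO tooth germs (161980_f_at). The difference was 0.63 ± 0.21 (SE), with an unadjusted p of 0.0119 and an adjusted p of 0.997 from limma. At its other probe set (96167_at) the signals were 126.7 and 119.1 in TCDD tooth germs, against 65.9 and 110.3 in DMSO tooth germs. The groups did not overlap there either, but the difference was 0.45 ± 0.25 (SE), with an interval of -0.09 to 0.99. Bag1, a co-chaperone that binds BCL2, differed by 0.35 ± 0.21 and Vdac2, a channel of the outer mitochondrial membrane that binds BAK, by 0.39 ± 0.24 (SE). Without TCDD replicate 1 these differences were 0.18 for Bag1 and 0.10 for Vdac2.

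Other inhibitor of apoptosis, PDCD and survival genes had 9 of 15 tested, with 7 higher and 2 lower and a median of 0.28. Pdcd6, which encodes the calcium-binding partner of ALIX, differed by 0.38, Ier3, an early response gene of survival, by 0.55 and Akt1, a survival kinase gene, by -0.28. With 1 array left out these ranged from 0.17 to 0.59 for Pdcd6, from 0.14 to 0.97 for Ier3 and from -0.42 to -0.14 for Akt1. Death receptors, adaptors and TNF superfamily genes had 9 of 22 tested, 4 higher and 5 lower, with a median of -0.03. Cradd, which encodes an adaptor of caspase 2, had signals of 59.5 and 46.7 in TCDD tooth germs, against 81.5 and 72.3 in DMSO tooth germs, a difference of -0.43 ± 0.23 (SE) without overlap. Ltbr, the lymphotoxin receptor gene, differed by 0.22 and Traf6, a signalling adaptor gene, by 0.20.

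Other caspases and executioners had 6 of 16 tested, 4 higher and 2 lower, with a median of 0.15. Lmna, whose product lamin A is cut by caspase 6, differed by 0.26, and Parp1, a caspase substrate of DNA repair, by 0.16. Htra2, which encodes a mitochondrial protease, had signals of 321.4 and 241.9 in TCDD tooth germs, against 581.5 and 245.7 in DMSO tooth germs, and its difference of -0.42 came from DMSO replicate 1. Regulators and relatives of p53 had 10 of 20 tested, 5 higher and 5 lower, with a median of 0.02. Pml, a scaffold gene of nuclear bodies, differed by -0.40, Hipk2, a kinase gene acting on p53, by -0.28 and Trp53bp1, a DNA break response gene, by 0.24.

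Markers of the labelled tissue mostly reached the filter. Of the dental and oral epithelium markers on the array, 8 of 11 reached the filter, the exceptions being Krt5, Krt14 and Krt15, and of the dental mesenchyme markers 12 of 14. Their summed signals were 2982 and 3435 for epithelium in TCDD tooth germs, against 2140 and 3026 in DMSO tooth germs, and 5609 and 5991 for mesenchyme in TCDD tooth germs, against 4953 and 5540 in DMSO tooth germs. Perp is on the epithelium list too, and most of that sum is Perp and Dsp, a desmosome gene with signals of 1379.2 and 1566.5 in TCDD tooth germs, against 936.4 and 1346.5 in DMSO tooth germs. Cdh1, which encodes E-cadherin of epithelial junctions, lay the other way, with 101.2 and 120.5 in TCDD tooth germs, against 170.3 and 141.1 in DMSO tooth germs, without overlap. Macrophage and leukocyte markers, of which 10 of 14 reached the filter, summed to 1149 and 1140 in TCDD tooth germs, against 1000.3 and 876 in DMSO tooth germs. Skeletal muscle markers, of which 5 of 12 reached it, summed to 1281 and 463 in TCDD tooth germs, against 922 and 396 in DMSO tooth germs, and so sorted by replicate number. No marker on any of these lists was at 0 on all arrays. The part of cell composition in the differences above was not tested.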

How the data were processed

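RNA of 4 pools of explants was hybridised to murine U74v2A oligonucleotide arrays. The deposited values are hybridisation intensity signals, made by the authors with the MAS5 algorithm of Affymetrix Microarray Suite 5.0 and scaled to a target of 100, per the labels' protocols. No probe-level files or detection calls were used here. Of 49952 cells, 18515 (37.1%) carry a calendar day's serial (a spreadsheet fault), and these were read back as signals, the day being the whole part and the month the decimal. After this the mean with 2% trimmed at each end was between 99.983 and 99.985 on the 4 arrays. Of the 84 cells of member probe sets below the filter 51 were such serials, and 0 in those tested.

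Gene names come from GEO's platform annotation, updated by Entrez ID with the GRCm38.p6 gene table (10817 of 10833 with 1 symbol matched, 0 changed). Some of the suffixes other than _at alone mark probes that may also match other transcripts. Control probe sets were left out. The fit used lmFit and trended eBayes of limma 3.58.1 under R 4.3.3, and was applied to log2(signal + 16) of the 5783 probe sets with a mean of at least 50, two-sided, without a block, and was tested on simulated data. The precision rests on the number of arrays. An exact permutation test of 2 arrays against 2 cannot go below a two-sided p of 0.333 and was not run. The members and lists were chosen with earlier results of these data known. The genes named are all members, and up to 3 of each further list with the smallest p. Alternatives were offsets of 1 and 64, no filter, the replicate number as a block, quantile normalization, eBayes without a trend, day serials set to 16, and each array left out.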

Additional observations from a re-analysis of the deposited data

How the results depend on the processing

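The count of member probe sets past the limma adjusted p was 0 under all 11 alternatives, and the lowest adjusted p of a tested gene among them was 0.178, that of Bok with the replicate block. Over all probe sets the count was 4, and it was 2 without the filter, 32 with the replicate block, and from 2 to 5 with 1 array left out. The p-values of the replicate block, among them those of the 32 and of Bok, rest almost wholly on a variance shared over probe sets. The labels do not say that the numbers pair the samples, and with 2 numbers the check (a correlation of 0.381 across probe sets between the replicate differences of the 2 groups) does not settle it. The median log2 change of the member genes was 0.004 in the full fit and ranged from -0.07 to 0.09 with 1 array left out. The spread of this median between array pairs (SD 0.091) comes from the same 4 arrays. Staying within that spread was therefore nearly certain beforehand and is no test of stability. Of 242 values of the 22 genes under the alternatives, 222 had the sign of the full fit and 20 the other sign. This share is raised by alternatives that cannot move the log2 change of these genes. They are the fit without a filter, the replicate block, eBayes without a trend and day serials set to 16. All 20 turns came from quantile normalization or a left-out array, and the other offsets changed the size of the log2 change but turned no sign. With quantile normalization the sign turned for Bcl2l1 (-0.0019), Casp9 (0.0063) and Fadd (0.015). With 1 array left out the log2 change ranged from -0.12 to 0.083 for Bcl2, from -0.20 to 0.23 for Bcl2l1, from -0.068 to 0.44 for Bak1, from -0.44 to 0.19 for Bad, from -0.11 to 0.41 for Casp6, from -0.28 to 0.17 for Tnfrsf1a, from -0.26 to 0.25 for Fadd, from -0.045 to 0.18 for Birc2, from -0.27 to 0.25 for Ccng1, from -0.091 to 0.23 for Gadd45g and from -0.21 to 0.066 for Pdcd6ip. Among the further genes it ranged from -1.02 to 0.17 for Htra2, from -0.053 to 0.38 for Parp1, from -2.44 to 0.061 for Cdkn1a, from -0.64 to 0.087 for Hipk2 and from -0.83 to 0.035 for Pml. A value turned or moved by over 1.5 times for 20 of the 22 genes and for 16 of the 18 further genes named. Leaving out an array sets 1 replicate number against both, and the cause of these turns was not tested. The 10 genes below the filter are limited by signal, since no call of presence was used for them.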
